A study of Mus musculus with 18 samples.

Results

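The genes described here encode carriers that move sugars, amino acids and monocarboxylates across cell membranes. They were chosen by symbol as the protein-coding genes in RefSeq (mouse assembly GRCm38.p6) that begin with Slc1a, Slc2a, Slc3a, Slc6a, Slc7a, Slc16a, Slc36a, Slc38a or Slc43a, and numbered 90 of 21883 protein-coding genes placed on chromosomes. One of the 90, Slc7a6os, shares the prefix of a neighbouring carrier but is named for lying opposite to it. A peak was counted at a gene when its centre lay inside the gene or within 10 kb of either end.

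Wild type C57BL/6 mice aged 3 to 6 months, fed freely on a cycle of 12 h light and 12 h dark and given no further treatment that the labels name, supplied the liver, kidney and heart in which BMAL1 binding was mapped by ChIP-seq (sequencing of immunoprecipitated chromatin). Organs were taken from 3 mice at ZT6, 6 h after lights on, and every mouse contributed all 3 organs. Each organ gave 3 ChIP libraries, precipitated with a chicken antibody against the N-terminal part of mouse BMAL1, and 3 input libraries, 18 in all. The authors pooled the libraries of an organ into 1 peak list, so each list is 1 sample without a spread between mice, and no test between tissues was possible. The lists held 4813 peaks in liver, 4034 in kidney and 2519 in heart, and the read depth behind them is unknown. Labels of the heart input conflict, because title and tissue give heart while the source field gives kidney. Which input entered the heart list was not tested, and no heart value could be given without it. Peaks do not measure expression, so the tissues were not checked against marker RNAs.

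BMAL1 pairs with CLOCK and binds E-box sequences, most typically CACGTG, to drive daily transcription. Liver, kidney and heart handle fuels differently: hepatocytes take up and release glucose and process amino acids, tubule cells of the kidney recover sugars and amino acids from the filtrate, and heart muscle burns fatty acids, lactate and glucose. The carrier families differ by substrate. Slc2a genes encode sugar carriers, Slc16a genes carriers of lactate, ketone bodies and related acids, and the Slc1a, Slc6a, Slc7a, Slc36a, Slc38a and Slc43a families move mostly amino acids and amines. Slc3a genes encode heavy chains that bring some Slc7a carriers to the membrane.

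Sequences are shown first for carrier promoters that a peak overlapped. The RefSeq promoter table (GRCm38.p6) held windows of 300 bases, from 250 before to 50 after a start site, for 65 of the 90 genes, 86 windows in all. A peak of at least 1 tissue overlapped 7 of the 86 windows, against 6.34% of all 32851 promoter windows. The 7 were at Slc16a1, Slc1a4, Slc2a6, Slc36a1, Slc38a4 and, for 2 start sites, Slc6a13. Each stretch below runs 5′ to 3′ on the gene's strand and ends 10 bases into the transcript. Capitals mark matches, on either strand, to the E-box CACGTG and to 3 variants, namely CACGTT and also CACATG and CACGCG. A variant read on the opposite strand appears as AACGTG in the case of CACGTT, and as CATGTG in the case of CACATG. Matches may overlap. The first 3 sequences are shown because they hold matches under peaks that kidney shares with another tissue, Slc2a6 for a kidney site, and Slc38a4 for a liver site with no match.
Slc16a1, chr3:104638414-104638673, plus strand: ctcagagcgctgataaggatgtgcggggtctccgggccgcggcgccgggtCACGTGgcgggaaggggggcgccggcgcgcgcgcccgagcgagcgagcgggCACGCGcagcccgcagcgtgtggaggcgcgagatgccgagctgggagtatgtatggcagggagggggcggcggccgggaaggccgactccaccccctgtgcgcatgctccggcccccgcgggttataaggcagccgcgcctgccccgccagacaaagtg
Slc36a1, chr11:55204090-55204349, plus strand: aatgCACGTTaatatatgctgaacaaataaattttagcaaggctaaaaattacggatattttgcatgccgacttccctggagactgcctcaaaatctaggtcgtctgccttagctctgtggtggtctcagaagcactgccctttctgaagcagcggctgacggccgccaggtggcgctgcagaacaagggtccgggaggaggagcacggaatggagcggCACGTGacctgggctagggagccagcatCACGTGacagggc
Slc6a13, chr6:121300038-121300297, plus strand: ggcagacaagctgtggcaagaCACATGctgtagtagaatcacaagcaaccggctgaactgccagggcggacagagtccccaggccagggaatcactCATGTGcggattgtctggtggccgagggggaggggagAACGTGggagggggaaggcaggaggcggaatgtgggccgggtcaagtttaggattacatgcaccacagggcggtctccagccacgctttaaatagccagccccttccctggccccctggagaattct
Slc2a6, chr2:27027989-27028248, minus strand: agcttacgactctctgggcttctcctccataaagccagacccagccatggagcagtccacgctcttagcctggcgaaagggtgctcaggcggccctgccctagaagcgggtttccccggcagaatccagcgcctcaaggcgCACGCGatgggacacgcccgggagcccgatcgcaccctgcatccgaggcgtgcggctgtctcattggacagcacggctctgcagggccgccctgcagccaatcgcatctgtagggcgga
Slc38a4, chr15:97031204-97031463, minus strand: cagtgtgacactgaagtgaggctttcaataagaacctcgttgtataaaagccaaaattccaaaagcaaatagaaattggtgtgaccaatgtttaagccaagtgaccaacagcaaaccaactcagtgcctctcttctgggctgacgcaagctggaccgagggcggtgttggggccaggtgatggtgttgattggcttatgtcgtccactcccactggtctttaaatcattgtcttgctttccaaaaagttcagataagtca

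At Slc16a1 the CACGTG began 200 bases before the start site and lay within both the kidney and the heart peak, as did a CACGCG 149 bases before it. The 2 CACGTG of Slc36a1 began 31 and 3 bases before the start, 28 bases apart, and both lay within the kidney and the heart peak. Its CACGTT, 246 bases before the start, lay outside every peak. The Slc6a13 window held an AACGTG and a CATGTG, 117 and 154 bases before the start, within the liver and the kidney peak. A CACATG of the same window, 229 bases before the start, lay within the liver peak only. The CACGCG of Slc2a6 lay 109 bases before the start, within the kidney peak. Of all 32851 promoter windows, 7.15% held CACGTG, 4.68% CACGTT, 14.2% CACATG and 9.27% CACGCG. Among the 2082 windows that overlapped a peak, CACGTG was in 31.3%, CACGTT in 8.84%, CACATG in 9.7% and CACGCG in 31.5%. These matches are descriptions of letters, not of sites.

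Peaks lay at 34 of the 90 carrier genes (37.8%), against 30.6% of all protein-coding genes. In liver 21 carriers had a peak (23.3%, against 18.1% of all genes), in kidney 18 (20.0%, against 18.0%) and in heart 13 (14.4%, against 11.5%). Carrier genes were long, with a median of 31.3 kb against 17.2 kb for all genes, and a longer gene has a wider window. Among genes of 18.1 to 58.4 kb, the middle 50% of carrier lengths, 9 of 44 carriers had a liver peak (20.5%, against 21.2% of all such genes), 8 had a kidney peak (18.2%, against 20.4%) and 8 a heart peak (18.2%, against 12.7%). The carriers' shares thus lay near the background, and a higher share in heart rested on 8 genes. The fewest carriers had a peak in the heart list, the shortest. With the lists cut to an equal number of top peaks liver kept 15 carriers, kidney 12 and heart 13. Kidney and heart were then nearly level, and no share over all genes is given for this setting.

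**Figure D1:**
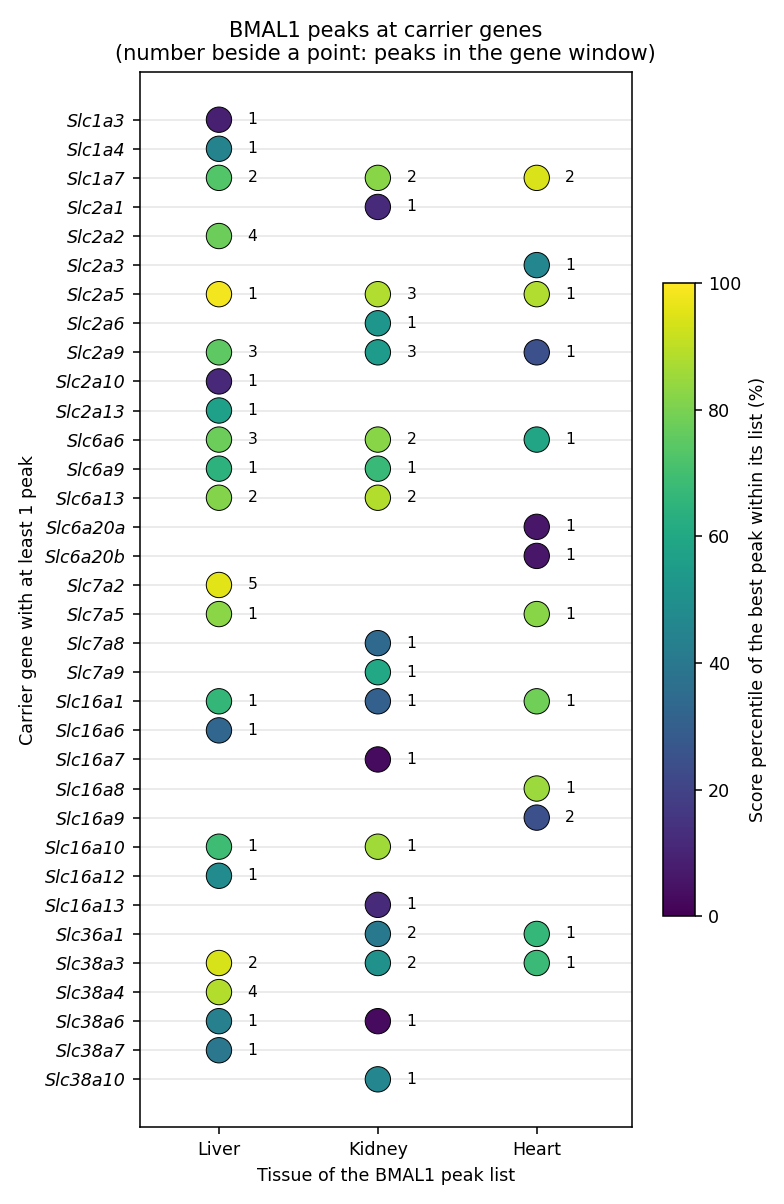
Rows are the 34 carrier genes with at least 1 BMAL1 peak, columns the 3 tissues. Colour gives the score percentile of the best peak within its own list, and the number beside a point counts the gene's peaks. Slc7a2, Slc2a2 and Slc38a4 have 5, 4 and 4 liver peaks and no point in kidney or heart.

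All 3 tissues had a peak at 6 carriers (6.67%, against 4.35% of all genes): Slc1a7, Slc2a5, Slc2a9, Slc6a6, Slc16a1 and Slc38a3. At Slc1a7, Slc2a5 and Slc38a3 the peaks of the 3 tissues overlapped in a common site (3.33%, against 3.09% of all genes). Liver alone had peaks at 10 (11.1%, against 7.01%), kidney alone at 7 (7.78%, against 6.68%) and heart alone at 5 (5.56%, against 4.3%). The shares for all 3 tissues, a common site and 1 tissue alone were not matched for gene length. Carrier genes are longer than genes in general. Of the 21 carriers with a liver peak, 47.6% had a kidney peak (against 54.0% of all genes with a liver peak) and 33.3% a heart peak (against 31.3%). Of the 18 with a kidney peak, 55.6% had a liver peak (against 54.2%) and 38.9% a heart peak (against 32.9%). Of the 13 with a heart peak, 53.8% had a liver peak (against 49.2%) and as many a kidney peak (against 51.3%). At 11 of 12 carriers with peaks in 2 or more tissues (91.7%), at least 1 site was shared, meaning that peaks overlapped by at least 1 bp. Among all genes it was 75.4% of 2772. The carrier share rests on 12 genes and is given without an interval, and the difference was not tested. It includes Slc16a10, whose only site lay nearest to another gene. The 1 carrier without a shared site was Slc6a9, a glycine carrier, with a liver peak and a kidney peak 8.91 kb apart.

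By family, the sugar carriers had peaks at 8 of 12 genes and the monocarboxylate carriers at 8 of 14, where 30.6% of all genes had a peak. All peaks counted at Slc16a8, Slc16a10 and Slc16a13 lay nearest to another gene, and the share over all genes counts such peaks too. The families are small, and no difference between them was tested. They were not matched for gene length either, and Slc2a9 and Slc2a13 span 154.0 and 306.0 kb. The single peaks of Slc2a1 (kidney, percentile 11.8) and Slc2a10 (liver, percentile 11.3) stood low in their lists. The sodium-coupled neutral amino acid carriers (Slc38a) had peaks at 5 of 11, the glutamate and neutral amino acid carriers (Slc1a) at 3 of 7, the Slc6a family at 5 of 21 and the Slc7a family at 4 of 16. Of the 4 proton-coupled carriers only Slc36a1 had a peak. Neither heavy chain, Slc3a1 or Slc3a2, and none of the 3 Slc43a genes had one in any list. Within these windows liver held 10 peaks at Slc2a genes and 8 at Slc38a genes, and kidney 8 and 4.

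**Figure D2:**
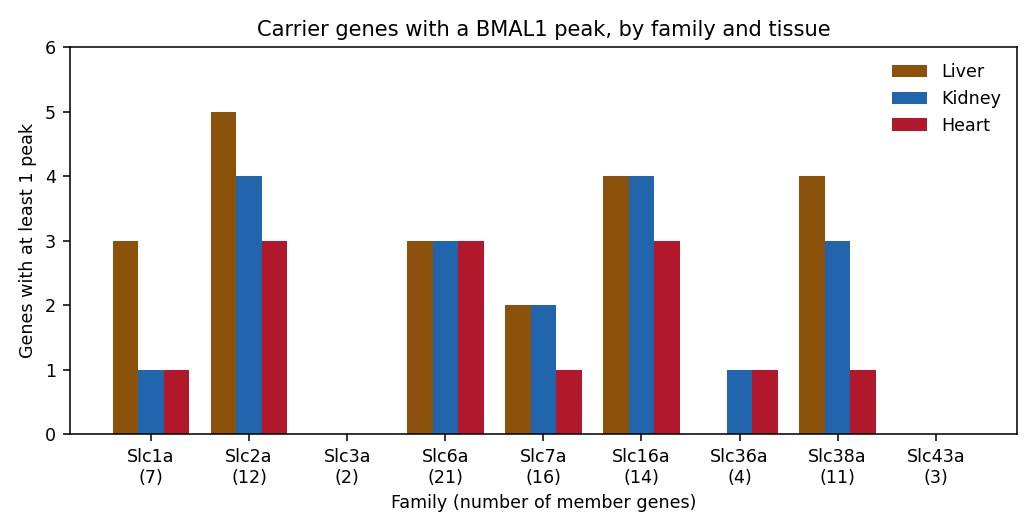
Bars count the genes of each carrier family with at least 1 BMAL1 peak in liver, kidney and heart, and family sizes stand in parentheses. Slc2a reaches 5 genes in liver, 4 in kidney and 3 in heart, while Slc3a and Slc43a have no bar.

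Among the sugar carriers, Slc2a5, the fructose carrier GLUT5, had the highest-scoring site of any carrier in liver. The score is the authors' whole number for each peak, its scale is unknown, and it is read here only within a list. It is also given as a percentile, the share of that list's peaks with a lower score, with tied peaks counted in part. The site lay inside the gene, 13.4 to 13.5 kb past its start, at chr4:150132673-150132914 in the liver list. Its score was 178 in liver (percentile 98.4), 68 in kidney (88.1) and 68 in heart (87.9). It was thus among the upper peaks of every list. Kidney had 2 further sites that no other tissue shared, one 0.595 kb past the start (score 35) and one 4.77 kb before it (score 31).

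Slc2a2 encodes GLUT2, the glucose carrier of hepatocytes, and its 4 peaks were all in liver and all inside the gene. They lay 8.02, 16.6, 24.0 and 27.3 kb past the start, with scores of 35, 20, 59 and 68, the best at percentile 77.6. The nearest kidney and heart peaks both lay 52.8 kb from the gene. Slc2a9, the urate carrier GLUT9, had 3 liver, 3 kidney and 1 heart peak, all inside the gene and 130.0 to 151.0 kb from its lower-coordinate end. Liver (score 64) and kidney (score 30) shared 1 of these sites, at chr5:38489323-38489564 in the liver list. The heart peak scored 18 and lay 1.02 kb from a liver peak of score 40 without touching it. Other sugar carriers had 1 peak each: Slc2a1 (GLUT1, basal glucose uptake, score 16) and Slc2a6 (score 29) in kidney, Slc2a3 (GLUT3, score 24) in heart, and Slc2a10 (score 21) and Slc2a13 (a myo-inositol carrier, score 44) in liver. Slc2a4, the insulin-responsive GLUT4 of heart, muscle and fat, had none, and its nearest peaks were 21.5 kb away in liver and kidney and 104.0 kb away in heart.

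Among carriers of cationic and neutral amino acids, 3 genes had several liver sites. Slc7a2, a cationic amino acid carrier that takes up arginine, had 5 liver peaks and none in kidney or heart. Their scores were 137, 86, 41, 34 and 18. The strongest, at chr8:40862127-40862368, was 0.0935 kb outside the lower-coordinate end of the gene and stood at percentile 95.7 of the liver list. A second, of score 86 and percentile 86.3, lay 29.9 kb inside the gene. Slc38a4, a neutral amino acid carrier of hepatocytes, had 4 liver peaks and no others, with scores of 92, 68, 45 and 41. The nearest kidney peaks were 182.0 kb from Slc7a2 and 534.0 kb from Slc38a4, and the nearest heart peaks 109.0 and 533.0 kb. The best overlapped the promoter shown above, its centre 0.103 kb before that start, and the next lay 0.932 kb before it. A count of 4 or more liver peaks was reached at 3 of the 90 carriers (Slc7a2, Slc2a2 and Slc38a4), against 0.402% of all genes (88 genes). At least 2 peaks were found at 8 of the 90 carriers in liver (against 4.1% of all genes), 7 in kidney (3.53%) and 2 in heart (1.24%). These counts were not matched for gene length, and carrier genes are longer than genes in general.

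Slc38a3 encodes a glutamine carrier known from liver and kidney. Outside its higher-coordinate end lay a site common to all tissues, 1.48 to 1.49 kb away, at chr9:107670331-107670572 in the liver list. It scored 104 in liver (percentile 91.2), 28 in kidney (50.3) and 35 in heart (67.9). A further site inside the neighbouring gene Gnat1 scored 120 in liver (percentile 94.0) and 19 in kidney (23.2), and heart had no peak there. Of both sites, the liver peaks thus stood high in their list and the kidney peaks near or below the middle of theirs. Slc38a6 had 1 site shared by liver (score 35) and kidney (score 14, the lowest that occurs in the kidney list). Slc38a7 had a liver peak (score 33) and Slc38a10 a kidney peak (score 26).

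Slc7a5, the large neutral amino acid carrier LAT1, had 1 site shared by liver (score 77, percentile 82.7) and heart (score 53, percentile 82.3). It lay 0.118 to 0.133 kb outside the gene's higher-coordinate end, with no kidney peak. The kidney-typical Slc7a9, which takes up cystine and dibasic amino acids together with Slc3a1, had 1 kidney peak of score 33, 0.102 kb outside the gene. Slc7a8 (LAT2) had a kidney peak of score 22 inside the gene. Both kidney peaks were found in no other tissue.

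Of the Slc6a carriers, Slc6a6, which moves taurine, had 3 liver peaks, 2 kidney peaks and 1 heart peak. Liver (score 68, percentile 77.6) and kidney (score 55, percentile 82.1) shared a site at the lower-coordinate end of the gene, at chr6:91683841-91684082 in the liver list. The other liver peaks scored 54 and 49, the other kidney peak 15 and the heart peak 29, and none of these was shared. Slc6a13, the GABA and taurine carrier GAT2, had 2 sites, each shared by liver and kidney, at its 2 peak-bearing start sites. The site at the upstream start scored 43 in liver and 29 in kidney. The downstream site scored 74 in liver (percentile 81.3) and 69 in kidney (88.5), the highest carrier score of the kidney list. Slc6a9 had a liver peak of score 51 and a kidney peak of score 38. A heart peak of score 16, the lowest in the heart list, lay between Slc6a20a and Slc6a20b, carriers of proline and related acids. It counted for both.

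In the Slc1a family, Slc1a7, a glutamate carrier best known from the retina, had 2 sites common to all tissues. The site inside the gene, at chr4:107998981-107999222 in the liver list, scored 26 in liver (percentile 24.4), 55 in kidney (82.1) and 53 in heart (82.3). The other was 2.05 to 2.06 kb outside Slc1a7 and inside its neighbour Podn, at chr4:108015471-108015712 in the liver list. It scored 61 in liver, 36 in kidney and 100 in heart (percentile 94.3), the highest carrier score of the heart list. Slc1a4, a neutral amino acid carrier, had a liver peak of score 36, 0.0705 kb before its start, and Slc1a3, the glutamate carrier GLAST, a liver peak of score 20 at 5.85 kb from the gene.

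**Figure D3:**
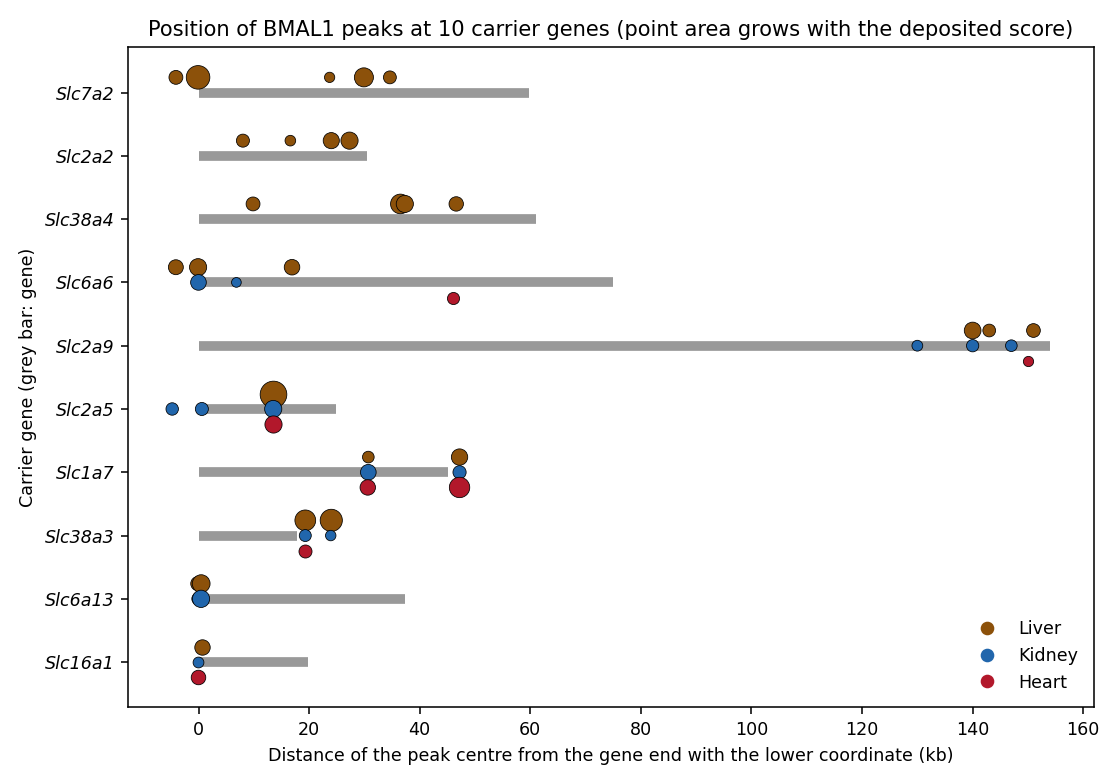
Points give the centres of BMAL1 peaks (liver, kidney and heart) at 10 carrier genes, in kb from the gene end with the lower coordinate. Grey bars are the genes, and point area grows with the deposited score, which can be compared only within a tissue. At Slc2a5 the peaks of the 3 tissues line up near 13.4 kb, while the 4 peaks of Slc2a2 are all from liver.

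Among the monocarboxylate carriers, Slc16a1 encodes MCT1, which moves lactate, pyruvate and ketone bodies. Kidney (score 21, percentile 30.4) and heart (score 46, percentile 78.4) shared the site of the CACGTG shown above, with centres 0.127 and 0.182 kb before the start. The liver peak (score 53, percentile 66.2) lay 0.567 kb past the start, 693 bp from the kidney centre, and did not overlap it. All 3 tissues thus had a peak within 1 kb of this start, but not at 1 common site by overlap. The liver centre was 749 bp from the heart centre, so a rule of centres within 1000 bp counts the 3 as common. Slc36a1, a proton-coupled amino acid carrier of the plasma membrane and lysosome, also had a start-site peak in kidney (score 24) and heart (score 34). Liver had none at Slc36a1, and kidney had a further peak of score 18 at 9.37 kb past the start.

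Slc16a10, which carries aromatic amino acids, had a liver peak (score 56) and a kidney peak (score 62, percentile 85.8) at 1 site, 8.28 and 8.24 kb outside the gene and nearest to Mfsd4b1. The heart peak counted at Slc16a8, a lactate carrier of the retinal pigment epithelium, scored 59 and lay inside Pick1, 7.59 kb away. Slc16a9 had 2 heart peaks of score 18 and 17. Slc16a12 and Slc16a6 had 1 liver peak each (scores 38 and 30), that of Slc16a6 also inside Arsg. Slc16a13 and Slc16a7 had 1 kidney peak each (scores 16 and 14), that of Slc16a13 3.78 kb outside the gene and nearest to Bcl6b. The Slc16a7 score is the lowest that occurs in the kidney list. Slc16a3, the MCT4 lactate exporter of glycolytic cells, had no peak, and the nearest one was 93.6 kb away, in kidney.

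Carriers typical of a tissue by textbook knowledge were also counted. Of 8 liver-typical carriers, 5 had liver peaks (Slc2a2, Slc6a13, Slc7a2, Slc38a3 and Slc38a4, with 17 peaks in all). Kidney peaks lay at 2 of them (Slc6a13 and Slc38a3) and a heart peak at 1 (Slc38a3). The list is not particular to liver, since Slc38a3 is known from kidney too. The best Slc6a13 peak stood at percentile 81.3 of the liver list and 88.5 of the kidney list. Slc1a2, Slc6a12 and Slc43a1 had no peak in any list. Of 10 kidney-typical carriers, 2 had kidney peaks (Slc7a8 and Slc7a9), none a liver peak and 1 a heart peak. The 8 without a kidney peak include Slc6a19 and Slc1a1, which recover neutral and acidic amino acids in the tubule, and the nearest kidney peaks were 19.6 and 155.0 kb from them. Of 5 carriers typical of heart and muscle, 2 had heart peaks (Slc6a6 and Slc16a1), the same 2 had liver peaks and 3 had kidney peaks (with Slc2a1). Of all genes, 18.1% had a liver, 18.0% a kidney and 11.5% a heart peak. These lists were drawn up with earlier results of the data known, and a difference between their counts was not tested.

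Carrier peaks numbered 38 in liver, 27 in kidney and 14 in heart. Their scores ran from 18 to 178 in liver (median 47.0, against 42.0 for the peaks at all protein-coding genes), from 14 to 69 in kidney (28, against 29.0) and from 16 to 100 in heart (34.5, against 27.0). Carrier peaks without an overlapping peak of another tissue were 68.4% in liver (26 of 38, exact Clopper-Pearson 95% interval 51.3 to 82.5%), 51.9% in kidney (14 of 27, 31.9 to 71.3%) and 7 of 14 in heart (23.0 to 77.0%). For peaks at all genes these shares were 63.1, 56.6 and 62.7%, inside the intervals, which cover counting error only. The intervals take peaks as independent, although several can lie at the same gene, such as the 5 liver peaks of Slc7a2. Carrier peaks lay inside a protein-coding gene, the carrier or a neighbour, in 73.7% of cases in liver (28 of 38, interval 56.9 to 86.6%), 63.0% in kidney (17 of 27, 42.4 to 80.6%) and 57.1% in heart (8 of 14, 28.9 to 82.3%). Peaks at all genes did so in 73.3, 70.9 and 75.4%, inside these intervals. Inside a carrier itself lay 25 liver, 14 kidney and 6 heart peaks.

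Start-site shares were counted over peaks at genes with a promoter entry. Within 1 kb of a start lay 26.9% of such carrier peaks in liver (7 of 26, interval 11.6 to 47.8%), 33.3% in kidney (7 of 21, 14.6 to 57.0%) and 20.0% in heart (2 of 10, 2.52 to 55.6%). Over all such genes it was 35.6, 48.2 and 45.8%, inside the intervals. The measures are unlike, however. Carrier peaks were measured to carrier starts only, and peaks at all genes to the start of any gene in whose window they lay. A carrier peak at a neighbour's start thus counted only in the all-gene share, and no difference or likeness can be read from these shares. Exons, introns and untranslated regions were not told apart here.

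**Figure D4:**
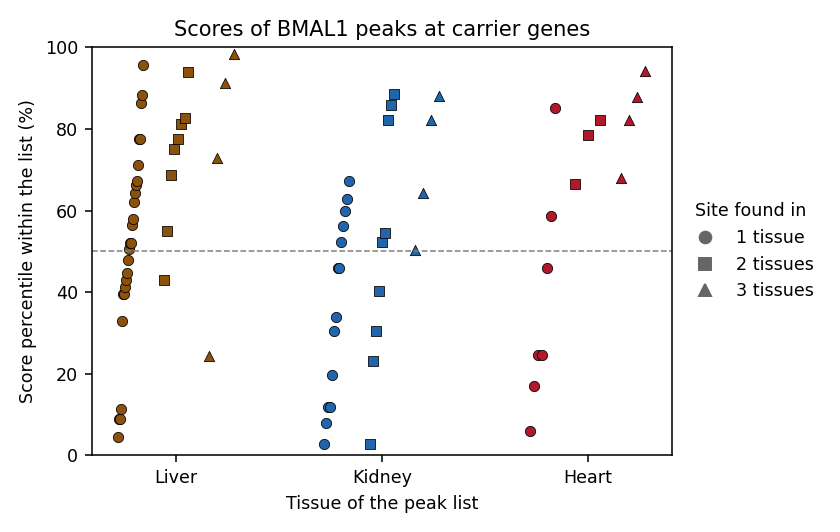
Each point is a BMAL1 peak at a carrier gene, placed by its score percentile within the tissue's list, and shapes show whether the site was found in 1, 2 or 3 tissues. The dashed line is the middle of a list. Single-tissue peaks reach percentile 95.7 in liver (Slc7a2), 67.3 in kidney (Slc6a9) and 85.1 in heart (Slc16a8).

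No peak lay at 56 carriers. For 22 of these a peak of some tissue lay within 50 kb, for 24 the nearest was beyond 100 kb, and the median distance was 79.9 kb. The farthest was Slc7a3, at 915.0 kb. Just inside the window were the Slc16a10 peaks and that of Slc16a8, and just outside were a kidney peak of score 16 at 10.1 kb from Slc16a11 and a heart peak of score 19 at 11.1 kb from Slc7a9. Slc7a1, Slc7a11, Slc38a2 and Slc1a5, all widely expressed amino acid carriers or exchangers, had nearest liver peaks at 341.0, 703.0, 43.7 and 18.0 kb. The heavy chain Slc3a2 had its nearest peak at 12.6 kb, in heart, and Slc3a1 at 31.8 kb, in heart. For the creatine carrier Slc6a8 it was 33.7 kb (kidney), for Slc7a7, a light chain that exports dibasic amino acids, 44.0 kb (heart), and for the system L-like carriers Slc43a1 and Slc43a2 76.8 kb (liver) and 53.2 kb (kidney).

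The other carriers without a peak were spread over the families. They were Slc1a6 among the glutamate carriers, and Slc2a7, Slc2a8 and Slc2a12 among the sugar carriers. In the Slc6a family they included Slc6a2, Slc6a3, Slc6a4, Slc6a5, Slc6a7, Slc6a11, Slc6a14, Slc6a15, Slc6a16, Slc6a17, Slc6a18 and Slc6a21, among them the carriers of dopamine (Slc6a3), serotonin (Slc6a4) and noradrenaline (Slc6a2). The Slc7a prefix added Slc7a4, Slc7a6, Slc7a6os, Slc7a10, Slc7a12, Slc7a13, Slc7a14 and Slc7a15. Others were Slc16a4, Slc16a5, Slc16a11 and Slc16a14, Slc36a2, Slc36a3 and Slc36a4, Slc38a1, Slc38a5, Slc38a8, Slc38a9 and Slc38a11, and Slc43a3.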

How the data were processed

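BMAL1 peaks at 90 carrier genes were taken from 3 lists, 1 per tissue, each made from all ChIP and input replicates together, per the labels. The submitters' processing notes name Bowtie2, SAMtools, HOMER and the build mm10, without versions or roles. The score of each peak is a whole number that the authors deposited, whose scale, like the filter behind the lists, is not given in the sources used here. Gene spans, start sites and promoter sequences came from RefSeq tables of GRCm38.p6, the assembly that mm10 denotes. Of the 90 genes, 65 had a promoter entry, and strand is known for these only.

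Peaks were assigned by their centre (window 10 kb), so a peak can count for several genes. An overlap of 1 bp made peaks of different tissues shared. Shares of carrier peaks have exact Clopper-Pearson 95% intervals, and shares of genes have none. Assignment was checked on simulated peaks. Python 3.11.15, pandas 2.3.3, numpy 2.4.6 and scipy 1.17.1 were used. Sequences under peaks outside the promoter windows were not used here, so the sequence rule was replaced by promoters that a peak overlaps. Carriers described at length were those with a site common to all tissues, the 8 best-scoring of each tissue, a fixed set of textbook carriers and those at the window edge. The others were to be named only, and the scores printed for them go beyond that rule. Alternatives covered the window, the list threshold, the assignment, the overlap and the start-site distance. A few of the carriers are not reported here by name. Members and lists were chosen with earlier results of these data known.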

Additional observations from a re-analysis of the deposited data

How the results depend on the processing

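No paired analysis was possible because the replicates were pooled before peaks were called, and for the same reason no replicate could be left out. Read depth is unknown, so what it limits could not be given. Of 96 values under 8 alternatives, 66 stayed within 1.5 times the count or within the 95% interval, and 30 did not. Shares over all genes under these alternatives are not given here. A wider window or a shorter list changes the count for any set of genes, so the changes below cannot be read as particular to carriers. With a window of 50 kb, carriers with a peak numbered 35 in liver, 31 in kidney and 24 in heart, 10 had a peak in all 3 tissues, 5 a common site and 9 a peak in heart alone, and the peaks numbered 64, 48 and 24. Inside the gene only, carriers with a peak numbered 11 in kidney and 6 in heart, those of kidney alone 4 and of heart alone 2, the peaks 25, 14 and 6, and the heart share within 1 kb of a start was 0% (0 of 4). Keeping the upper 50% of each list, carriers with a peak numbered 9 in kidney and 8 in heart, 3 had a peak in all tissues, carriers of liver alone numbered 4, of kidney alone 2 and of heart alone 2, and the peaks 25, 13 and 9. With lists cut to an equal number of top peaks, those of liver alone were 5 and of kidney alone 3, and kidney peaks numbered 17. Counting a peak only for its nearest gene left 3 carriers of heart alone. The 2 other overlap rules and the 5 kb start-site distance moved no value past these limits. With centres within 1000 bp counted as shared, 4 carriers had a common site, against 3 by overlap.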

Other observations

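CACGTG was found in 11 of the 86 carrier promoter windows (12.8%), and a peak overlapped 2 of these, at Slc16a1 and Slc36a1. The other 9 windows belonged to Slc16a12, Slc1a6, Slc1a7, Slc38a5, Slc38a7, Slc43a1, Slc6a16, Slc6a3 and Slc7a14. Of these genes, Slc1a7, Slc16a12 and Slc38a7 had peaks elsewhere in their windows, the liver peak of Slc16a12 at 0.574 kb past its start. Over all RefSeq windows, 27.8% of those with CACGTG overlapped a peak (652 of 2349), against 6.34% of all 32851 windows, so 2 of 11 carrier windows do not stand out from the background. The windows cover only 300 bases, and sequence elsewhere was not analysed here.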
